A study of Mus musculus with 26 samples.

Results

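The results describe Slc23a2, the gene of the sodium-dependent vitamin C transporter SVCT2, in single mouse oocytes at the germinal vesicle (GV) stage. It was taken as the transcript that carries this symbol in the study's classifier, a set of 100 transcripts that separate 2 nuclear configurations. This gave 1 transcript (TCONS_00062034) of the 38540 in the count table. In the non-surrounded nucleolus (NSN) configuration the Hoechst-stained chromatin forms no ring around the nucleolus, and in the surrounded nucleolus (SN) configuration the ring is complete. An oocyte with a partial ring was scored as intermediate. The oocytes came from 2 wildtype C57Bl6/Babr females of 12 weeks of age, called C and D, and their cumulus cells had been removed. Polyadenylated RNA of each oocyte was sequenced on its own. Mouse C gave 5 NSN and 9 SN oocytes, and mouse D gave 4 NSN, 7 SN and the 1 intermediate oocyte, so 9 NSN and 16 SN oocytes were compared. No gene was altered and no agent was given in any group. The transcript was chosen because it differed between NSN and SN oocytes, so its difference between the stages is given as a description and with no test.

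SVCT2 moves ascorbate, the reduced form of vitamin C, into cells together with sodium ions, and it is the main ascorbate transporter of most tissues outside absorptive epithelia. Mice make their own ascorbate in the liver, and other cells take it up from the blood through this carrier. Inside cells ascorbate is an antioxidant, and it keeps the iron of a family of dioxygenases reduced. That family includes the TET enzymes, which oxidise methylated cytosine, and many histone and RNA demethylases. GV oocytes in the SN configuration have largely stopped transcription, so their messenger RNA is a store laid down earlier. In such cells a larger share of the counts for a transcript and a slower loss of it than of other transcripts cannot be told apart.

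On GRCm38 the gene (ENSMUSG00000027340.15) lies on the minus strand of chromosome 2 and spans 92613 bases, chr2:132052496-132145108. GENCODE lists 7 transcripts, of which 2 are coding. The full-length form, Slc23a2-201, has 16 exons (15 with coding sequence), 6364 bases in all, and a coding sequence of 1944 bases for 648 amino acids. Genes on the plus strand overlap it at 2 places. The processed pseudogene Gm14052 lies within the gene over 1031 bases, and the antisense gene Gm14051 shares 576 bases with its 5′ end. Whether the counting used strand is not stated, so reads from these genes cannot be told apart from those of Slc23a2 where they overlap. The exons of the assembled transcript itself were not analysed here.

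Slc23a2 had high counts in every oocyte. Its counts ranged from 492 to 2335 per oocyte and summed to 31240 over the 26 oocytes, out of total counts of 1358383 to 3647827 per oocyte. Levels are given as CPM, the count of the transcript scaled to a common total count per oocyte and not scaled by transcript length. At these counts the counting error alone was 2.07% to 4.51% of a value, and 95% Poisson intervals cover that error only, since the reads carry no molecular identifiers. Differences between oocytes of the same stage were far wider than these intervals.

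The 9 NSN oocytes spanned 198 to 630.3 CPM, with a median of 307 CPM. The lowest were C-12 at 198 CPM, D-34 at 219 CPM and C-8 at 242 CPM. D-30, C-6 and C-3 followed at 300.4, 307 and 339.7 CPM. The remaining NSN oocytes stood higher, with C-7 at 475 CPM, D-11 at 609.5 CPM and D-14 at 630.3 CPM. The 2 highest NSN oocytes came from mouse D, which also held NSN oocytes at the low end.

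The 16 SN oocytes spanned 223 to 924 CPM, with a median of 696 CPM. Most of them lay together, 12 between 586 and 924 CPM, with C-20 and C-21 at the top. The other 4 lay apart at lower values, C-13 at 223 CPM, D-28 at 338 CPM, C-14 at 383 CPM and C-9 at 422 CPM. No SN oocyte lay between 422 and 586 CPM. The intermediate oocyte D-15 had 547.7 CPM (95% interval 517 to 580 CPM), inside the range of both stages and in the gap between these SN oocytes.

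**Figure D1:**
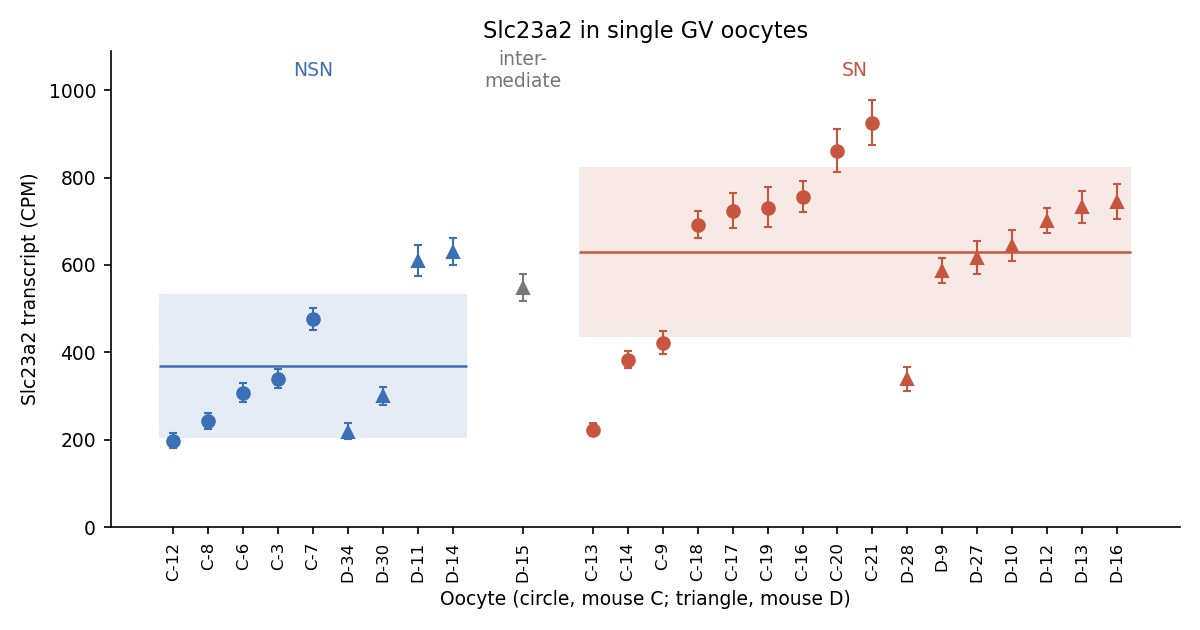
Slc23a2 level (CPM, vertical axis) in each of the 26 oocytes, by stage and mouse (circle, mouse C; triangle, mouse D), with 95% Poisson intervals as bars, and with the stage mean as a line and ± 1 SD as a shaded band. Of the SN oocytes, 10 sit above every NSN oocyte and 4 sit at 422 CPM or less, while the NSN oocytes spread from 198 to 630.3 CPM.

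The mean level was 369 CPM ± 164 (SD, n = 9) for NSN oocytes. For SN oocytes it was 629.8 CPM ± 194 (SD, n = 16), which makes a ratio of 1.71. The medians stood further apart, with a ratio of 2.27. The ranges overlapped. Of the SN oocytes, 10 lay above every NSN oocyte and 6 lay inside the NSN range, and 2 NSN oocytes lay below every SN oocyte. No NSN oocyte reached the SN median, and 15 of 16 SN oocytes exceeded the NSN median. In 124 of the 144 pairs of 1 SN and 1 NSN oocyte (86.1%) the SN oocyte was the higher. In edgeR's fit over 16657 transcripts the SN minus NSN log2 fold change was 0.82 ± 0.19 (SE), against a median of 0.01 over all transcripts tested. The scaling between oocytes sets this median, so it does not show whether other transcripts kept their absolute amount. As background to this choice, edgeR called 899 transcripts (5.4%) higher and 1345 (8.07%) lower in SN at an adjusted p under 0.05. This contrast chose Slc23a2, so nothing is read from its place among them.

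The difference between the stages had the same direction in both mice. NSN oocytes of mouse C averaged 312 CPM ± 107 (SD, n = 5) and its SN oocytes 635 CPM ± 237 (SD, n = 9). NSN oocytes of mouse D averaged 439.8 CPM ± 211 (SD, n = 4) and its SN oocytes 623 CPM ± 139 (SD, n = 7). Fitted within a mouse, the log2 fold change was 1.03 ± 0.26 (SE) in mouse C and 0.55 ± 0.24 (SE) in mouse D. The test of this difference between the mice, a term of stage by mouse in edgeR's quasi-likelihood fit, gave a log2 difference (D minus C) of -0.49 ± 0.37 (SE) and an adjusted p of 0.881 (unadjusted p of 0.194). It called 0 of 16657 transcripts (0%), with 994 at an unadjusted p under 0.05, and DESeq2 called 0 as well. The SE leaves room for a difference as large as the stage difference itself.

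**Figure D2:**
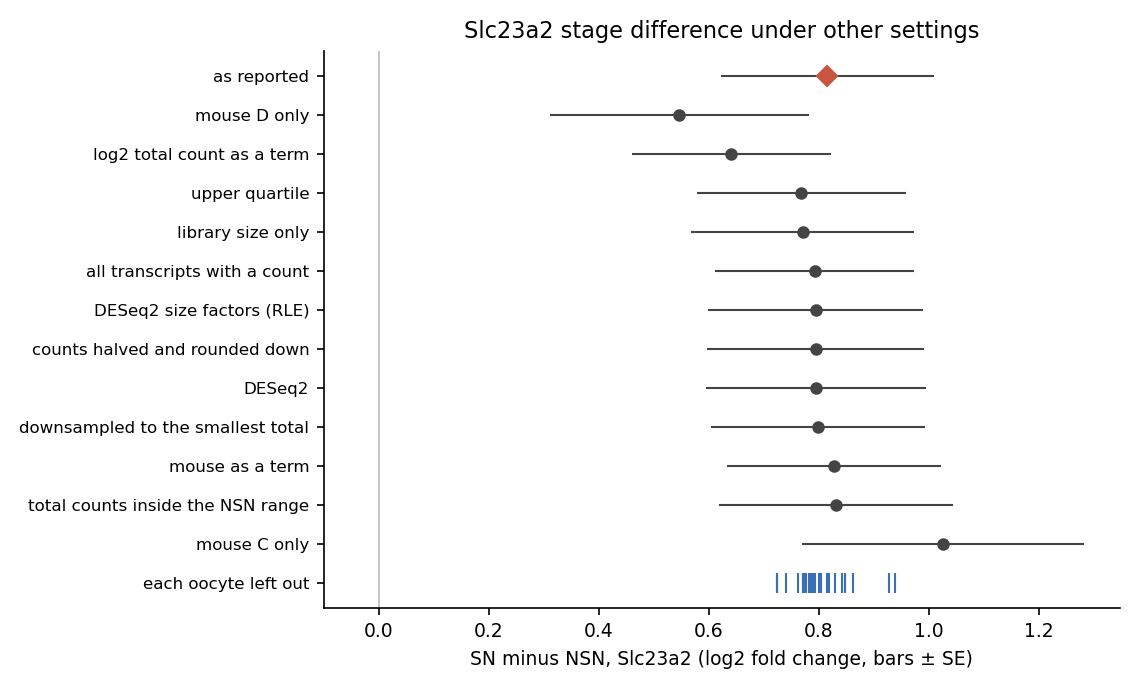
SN minus NSN log2 fold change of Slc23a2 (horizontal axis, bars ± SE) as reported (diamond), under other settings (points) and with each of the 25 NSN and SN oocytes left out in turn (ticks). All values lie above 0, from 0.55 with mouse D only to 1.03 with mouse C only. The values with an oocyte left out run from 0.72 to 0.94. The same oocytes chose the gene by this difference, so the values are a description.

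The oocytes of the mice themselves were compared next, which the choice of the gene had not used. With stage in the model, Slc23a2 differed between mouse D and mouse C by a log2 fold change of 0.14 ± 0.18 (SE), with an adjusted p of 0.844 in edgeR's quasi-likelihood test. The same test called 6 of 16657 transcripts (0.036%) different between the mice. This background depended on the setting, with 0 called with library size only, 53 without the filter on low counts and 165 by DESeq2. Within SN oocytes the difference in mean log2 CPM (D minus C) was 0.05 (two-sided exact permutation test, p = 0.872, 9 oocytes of mouse C and 7 of mouse D). Within NSN oocytes it was 0.40, p = 0.349 in the same exact permutation test (5 oocytes of mouse C and 4 of mouse D), where the smallest p possible was 0.00794. Oocytes of 1 mouse are not separate animals, so these p-values measure the spread between oocytes of 2 mice.

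Slc23a2 varied more from oocyte to oocyte than most transcripts of its abundance. Its coefficient of variation in CPM was 44.4% in NSN and 30.8% in SN oocytes, and the highest oocyte exceeded the lowest 3.18-fold in NSN and 4.14-fold in SN. edgeR's biological coefficient of variation, the spread left after counting error with stage in the model, was 0.316, against 0.199 on the trend for transcripts of this abundance. Of the 7065 tested transcripts that averaged 50 counts or more, a set not matched to the abundance of Slc23a2, 364 (5.15%) had a larger one. Estimated within a stage, it was 0.315 among NSN oocytes, where the trend was 0.203, and 0.284 among SN oocytes, where the trend was 0.196. The spread itself was not shown to differ between the stages. The mean absolute deviation of log2 CPM from the stage median was 0.49 in NSN and 0.37 in SN oocytes, a difference of -0.12 ± 0.18 (SE) with an adjusted p of 0.999 (unadjusted p of 0.512) in limma. limma called 0 of 16657 transcripts (0%) for a difference in spread, with 602 at an unadjusted p under 0.05.

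The level of Slc23a2 within a stage followed the rest of the classifier. A score was taken for each oocyte as the mean standardised level of the other classifier transcripts listed as higher in SN minus that of those listed as lower, 99 transcripts without Slc23a2. NSN oocytes scored -3.29 to -1.11 and SN oocytes -0.12 to 1.73, with the intermediate oocyte at -0.19. The 4 SN oocytes with the least Slc23a2 were the 4 with the lowest SN scores, C-13 at -0.12, D-28 at -0.07, C-9 at 0.17 and C-14 at 0.41. Across SN oocytes the score and log2 CPM of Slc23a2 had a Pearson's r of 0.92 and a Spearman's rho of 0.721 (n = 16), and without the 2 oocytes farthest from the median score r was 0.844. Across NSN oocytes r was 0.689 and rho 0.70 (n = 9), and r was 0.608 without such 2. These are descriptions. All 99 transcripts were selected on these oocytes and share their libraries with Slc23a2, so the relation is not independent support for either.

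**Figure D3:**
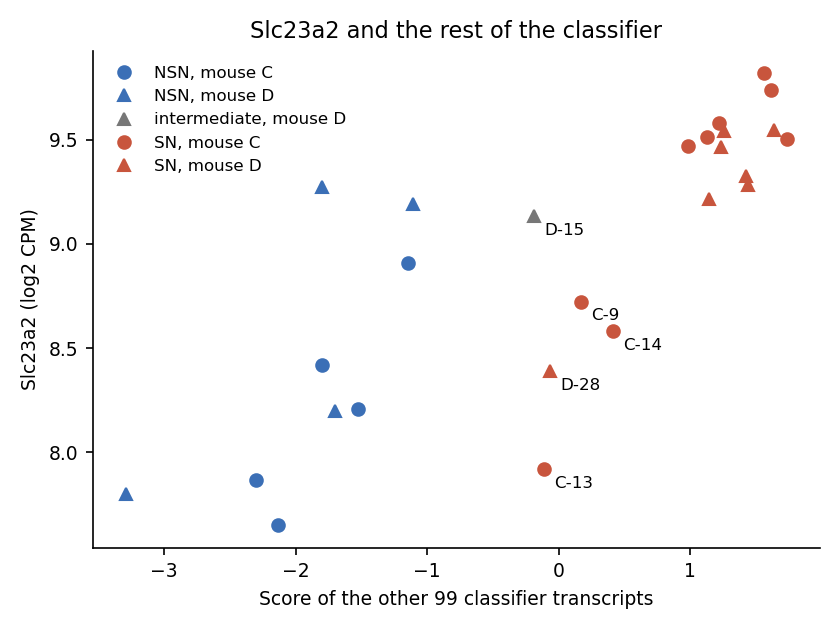
Slc23a2 level (log2 CPM, vertical axis) against the score of the other 99 classifier transcripts (horizontal axis, no unit), 1 point per oocyte, coloured by stage, circles for mouse C and triangles for mouse D. The SN oocytes C-13, D-28, C-9 and C-14, with scores of -0.12 to 0.41, have both the lowest SN scores and the lowest SN levels, and the intermediate oocyte D-15 lies beside them in score at -0.19.

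Depth moved with the level among SN oocytes. The 3 smallest SN libraries, with 1358383 to 1382851 counts, were C-19, C-20 and C-21 at 731, 861 and 924 CPM, and the 2 largest were C-13 and C-14 at 223 and 383 CPM. Pearson's r between total count and CPM was -0.607 and Spearman's rho -0.588 in SN oocytes (n = 16), and r was -0.299 without C-13 and C-14. In NSN oocytes r was -0.463 and rho -0.0833 (n = 9). With the log2 total count as a term beside stage the stage difference was 0.64 ± 0.18 (SE). With the 9 NSN and the 6 SN oocytes whose total count lay inside the NSN range it was 0.83 ± 0.21 (SE). That range left out C-13, D-28 and C-14, the SN oocytes with the lowest levels, and also C-20 and C-21, with the highest. After every library had been thinned to the smallest total the stage difference was 0.80 ± 0.19 (SE). The part of depth in the level of single oocytes was not tested further.

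Among the 35 classifier transcripts listed as higher in SN, Slc23a2 had a large stage difference and a wide spread. The study first kept transcripts whose genes an earlier bulk study had also listed as different between NSN and SN. From these it chose the 35 by the adjusted p of the stage contrast on these oocytes. A transcript with a wide spread needed a large difference to enter, so nothing is read from this pairing. The log2 fold change of Slc23a2 ranked 3 of 35, where the median was 0.50 and the range 0.24 to 0.94. Its biological coefficient of variation also ranked 3 of 35. The nearest above it in fold change were Ier5l, an immediate early response family gene, at 0.94 ± 0.27 (SE), and Oosp3, which encodes an oocyte-secreted protein, at 0.85 ± 0.19 (SE). The nearest below were Tiam1, an activator of the GTPase RAC, at 0.80 ± 0.17 (SE), and Oosp1, another oocyte-secreted protein gene, at 0.79 ± 0.16 (SE). These differences lie within the SE of one another. By the share of pairs in which the SN oocyte was the higher, Slc23a2 stood in the middle of the 35, at 86.1% against a median of 86.8% and a range of 79.2% to 100%. Gtf2b, which encodes a general transcription factor and is named here after its values were seen, was the 1 transcript of the 35 whose stages did not overlap.

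**Figure D4:**
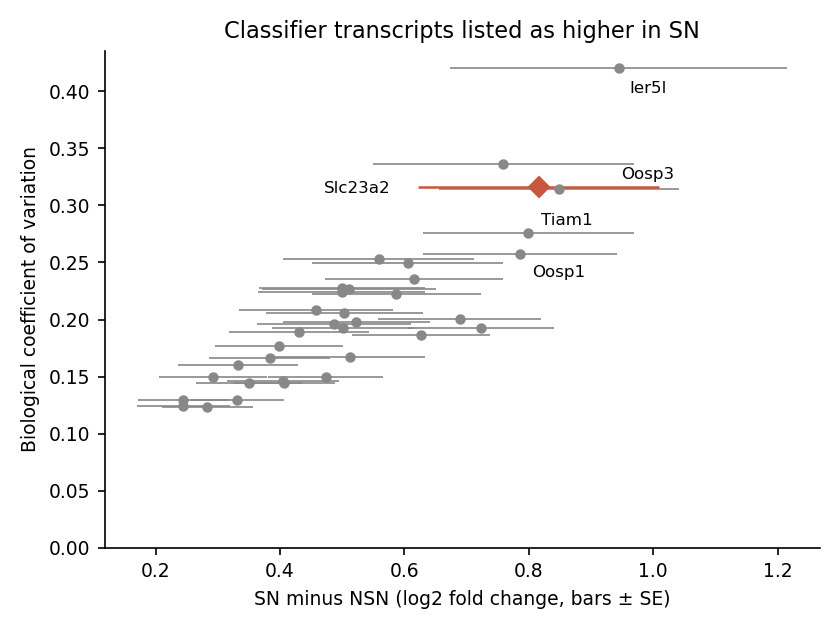
Biological coefficient of variation (vertical axis) against the SN minus NSN log2 fold change (horizontal axis, bars ± SE) of the 35 classifier transcripts listed as higher in SN. Slc23a2 (diamond) lies at 0.82 and 0.316, in the upper right of the plot beside Oosp3, with Ier5l above both and most other transcripts lower in both. The 35 were chosen by the adjusted p of the stage contrast, among genes also listed by an earlier bulk study, so nothing is read from this position.

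Many transcripts shared the profile of Slc23a2 over the oocytes. Likeness was measured as Pearson's r of log2 CPM over all 26 oocytes with each of 7045 transcripts of at least 50 mean counts, of which 81 had a symbol. The median r was 0.01, and 20.7% of the transcripts had an r above 0.5. The most alike were 3 assembled transcripts without a symbol here, TCONS_00090731 (r = 0.971), TCONS_00020475 (r = 0.968) and TCONS_00106135 (r = 0.967). Of those with a symbol, Tiam1 was the most alike (r = 0.953, rank 8), followed by Nfya, a subunit of the CCAAT-binding factor NF-Y (r = 0.934), and Wdtc1, which encodes a protein with WD40 repeats (r = 0.907). The least alike with a symbol were Zp3, a glycoprotein of the zona pellucida (r = -0.823), and Noto, a homeobox transcription factor (r = -0.801). Of the 81 with a symbol, 34 are classifier transcripts listed as higher in SN and 28 are listed as lower. Tiam1, Nfya and Wdtc1 are among the former, and Zp3 and Noto among the latter. The contrast of the stages chose them as it chose Slc23a2, so nothing is read from their places over both stages.

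Removing the stage means did not take the likeness away. Over 25 oocytes without their stage means the median r was -0.10 and 16.8% of the transcripts had an r above 0.5. TCONS_00090731 (r = 0.962) and TCONS_00020475 (r = 0.956) again led, followed by TCONS_00097076 (r = 0.95). With a symbol, Tiam1 had an r of 0.922, Nfya of 0.898 and Phc2, a Polycomb group gene, of 0.867. At the other end stood Psmc5, an ATPase of the proteasome (r = -0.831), and Zp3 (r = -0.741). For TCONS_00090731 r was 0.966 within NSN and 0.969 within SN oocytes, and for Tiam1 0.966 and 0.893.

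Tiam1 shows the pattern in its values. In NSN oocytes it ran from 109 CPM in C-12 to 303 CPM in D-14, and in SN oocytes from 121 CPM in C-13 to 446 CPM in C-20. The same NSN oocytes were lowest and highest for Slc23a2, and C-13 and D-28 were the lowest SN oocytes for both. Zp3 ran the other way. It had its NSN maximum of 5052 CPM in D-34 and its NSN minimum of 2379 CPM in D-11, its SN maximum of 3916 CPM in C-13, and its SN minimum of 1715 CPM in C-21. Psmc5, whose stage means were 282 CPM in NSN and 278 CPM in SN, ran from 221 CPM in C-20 to 376 CPM in C-9 among SN oocytes. All these points share the 26 libraries, and an r across them is a description.

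**Figure D5:**
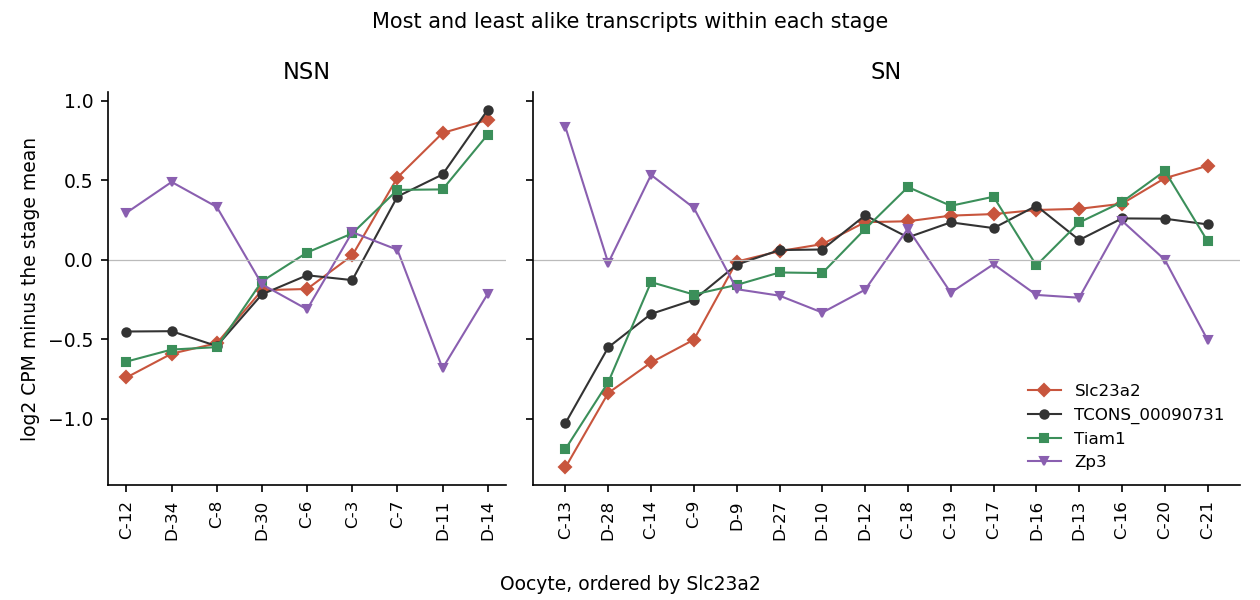
Log2 CPM minus the stage mean (vertical axis) of Slc23a2, TCONS_00090731, Tiam1 and Zp3 in 9 NSN (left) and 16 SN oocytes (right), ordered by the level of Slc23a2 within each stage. TCONS_00090731 and Tiam1 climb with Slc23a2 from C-12 to D-14 and are lowest with it in C-13, while Zp3 is highest in C-13 among SN oocytes.

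Annotated length moved with this likeness. Of the 81 transcripts with a symbol, 80 had an annotated length. The 21 with an r above 0.5 after removal of the stage means had a median length of 3985 bases, and the 16 with an r below -0.5 one of 1937 bases. Across the 80 the Spearman's rho of length and r was 0.483. It was 0.44 over the 34 listed as higher in SN, 0.538 over 27 listed as lower and 0.625 over the 19 with an Ensembl identifier, which were not chosen on these oocytes. Genes are not independent replicates, and these values carry no test. A length index was then taken as the mean log2 CPM of the longer minus that of the shorter of the tested transcripts with an Ensembl identifier (23 over 1858 bases and 24 at or below). NSN oocytes had an index of 1.03 ± 0.20 (SD, n = 9) and SN oocytes one of 1.17 ± 0.24 (SD, n = 16). With the log2 CPM of Slc23a2 it had an r of 0.838 and a rho of 0.833 in NSN oocytes (n = 9), and an r of 0.364 and a rho of 0.35 in SN oocytes (n = 16). Its part in the level of Slc23a2 was not tested.

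The vitamin C pathway could be followed only in small part, since 511 of the 38540 transcripts had a symbol used here, 366 of them from the study's own lists of transcripts chosen on these oocytes. Of 16 genes of vitamin C uptake and recycling, 2 had a symbol. Besides Slc23a2 this was Glrx2, a mitochondrial glutaredoxin, at 1 to 5 counts in NSN and 0 to 7 counts in SN oocytes, which fell below the filter on low counts. Of 43 ascorbate-dependent dioxygenases, 1 had a symbol. This was Alkbh5, which removes methyl groups from adenosines in RNA and is itself a classifier transcript. Alkbh5 averaged 527 CPM ± 139 (SD, n = 9) across NSN and 673.5 CPM ± 77.1 (SD, n = 16) across SN oocytes, and its log2 fold change was 0.40 ± 0.10 (SE). Of the 9 genes of the sodium pump, which maintains the gradient that drives SVCT2, 0 had a symbol.

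Of the solute carriers, 7 had a symbol and 4 of these were tested. Of these 4, Slc23a2 and Slco3a1, an organic anion transporter, are classifier transcripts chosen by the contrast of the stages, so their difference is a description and nothing is read from the list. Slco3a1 averaged 201 CPM ± 16.4 (SD, n = 9) across NSN and 238 CPM ± 21.4 (SD, n = 16) across SN oocytes. Its log2 fold change was 0.28 ± 0.07 (SE), and its SD was a smaller part of its mean than that of Slc23a2. The other 5 came from the study's list of transcripts missing in SN and were rare. Slc17a8, a vesicular glutamate transporter, had 1 to 9 counts in NSN and 0 to 10 in SN oocytes, and Slc38a10, an amino acid transporter, 1 to 6 and 0 to 4. Their log2 fold changes were -0.39 ± 0.62 and -0.95 ± 0.57 (SE). These are descriptions, since that list was chosen by absence from most of these SN oocytes. Slc7a11, the cystine and glutamate exchanger, had at most 17 counts in an NSN and 3 in an SN oocyte. Slc25a21 and Slc25a29, mitochondrial carriers, had at most 11 and 7 counts in NSN and 4 each in SN oocytes.

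The libraries carried oocyte markers in every oocyte. Of 13 markers, 5 had a symbol, and their summed counts ranged from 6643 to 25989 per oocyte. All 5 are classifier transcripts chosen by the contrast of the stages, Zp3, Astl, Oog4 and Nobox as lower and Oosp1 as higher in SN, so nothing is read from their direction. Of 13 granulosa and cumulus cell markers, Amh alone had a symbol, with 0 to 31 counts in NSN oocytes (median 4), 0 to 10 in SN oocytes (median 0) and 0 in the intermediate oocyte. Amh came from the study's list of transcripts missing in SN, chosen on these oocytes. Nothing is therefore read from its lower counts in SN, and its part in the values of Slc23a2 was not tested.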

How the data were processed

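Single GV oocytes were profiled by scM&T-seq, with RNA libraries prepared from polyadenylated RNA without molecular identifiers. Reads were trimmed with Trim Galore and aligned to GRCm38 with HISAT2 2.1.0, with SAMtools 1.19.2 also named in the submitters' processing notes. The authors used SeqMonk to count reads on the transcripts of an oocyte transcriptome assembled earlier, and the deposited values are these raw counts. Strand use, and whether a read across a splice junction was counted once, are not stated. A second deposited table holds only the authors' DESeq2 comparison (means, shrunken fold changes and p-values) and was not used. Stage and mouse came from the labels, and 0 other columns of samples were left unused.

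CPM values are counts over an oocyte's total count. Log2 CPM values used TMM scaling and a prior count of 2. The stages were compared in edgeR 4.0.16 (TMM, quasi-likelihood test, stage as the term). A transcript entered the test with 3 or more counts in 9 or more oocytes, and p-values were adjusted over all such transcripts by the Benjamini-Hochberg method, with a threshold of 0.05. Mouse, and stage by mouse, were added as terms. SEs came from the quasi-F statistic. Spread was tested with limma 3.58.1 on absolute deviations. DESeq2 1.42.0 was an alternative, with R 4.3.3, and figures and tables used Python 3.11.15. The functions were tested on simulated data. The intermediate oocyte entered no test. No NSN or SN library was a duplicate of another of its stage. The counts of each of 156 same-stage pairs differed with a chi-square of at least 2.78 per degree of freedom. Pairs across stages, and pairs with the intermediate oocyte, were not compared.

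Gene symbols came from the study's lists (366 transcripts) and from GENCODE M21 by Ensembl identifier (145). Named transcripts are Slc23a2, members of the gene and marker lists, the most and least alike by r, and the 2 nearest above and below it by fold change. The member and all lists were chosen with earlier results of these data known. The length comparison was added after the values had been seen. Lengths are those of the Ensembl transcript or of the longest coding transcript of the symbol. Alternatives covered scaling, filter, prior count, depth, tool, mouse and each oocyte left out, and 2 were chosen after seeing the data, the log2 total count as a term and counts halved and rounded down.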

Additional observations from a re-analysis of the deposited data

Results flagged for a closer look

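Slc23a2 in the SN oocyte D-28 stood apart from the other SN oocytes of mouse D. It had 338 CPM, and the next oocyte of this group, D-9, had 586 CPM, so the gap was 0.61 of the group's whole range of 406 CPM, past Dixon's 95% critical value for 7 samples. The highest and the lowest oocyte of 5 groups (all NSN oocytes, and NSN and SN oocytes of each mouse) were examined in this way, and this was the 1 oocyte past the limit. Chance alone gives about 1 in 20 groups. D-28 also had the second lowest classifier score of the SN oocytes (-0.07) and the lowest length index of all 25 oocytes (0.604). Mouse C held low SN oocytes too, C-13 at 223 CPM, C-14 at 383 CPM and C-9 at 422 CPM. SN oocytes of both mice together were not examined against Dixon's limit.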

How the results depend on the processing

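The stage difference of Slc23a2 was positive under all 12 alternatives, from 0.55 (mouse D only) to 1.03 (mouse C only). With each of 25 oocytes left out it was also positive, from 0.72 (without D-34) to 0.94 (without D-14). The same oocytes chose the gene by this difference, so the kept sign is a description and no separate support. The mouse difference kept its sign in 10 of 11 alternatives and turned to -0.036 with SN oocytes only (adjusted p = 0.967 in edgeR). With NSN oocytes only it was 0.45, and adjusted p-values over all 11 ran from 0.691 to 0.967. With an oocyte left out it ran from 0.07 (without D-11) to 0.23 (without D-28). Within SN oocytes it ran from -0.11 (without C-13) to 0.18 (without D-28), and within NSN oocytes from 0.18 (without D-14) to 0.66 (without D-34), with exact permutation p-values of at least 0.143. The stage by mouse difference stayed negative, from -0.52 to -0.26 under 9 alternatives and from -0.70 (without D-34) to -0.25 (without D-14) with an oocyte left out, and the spread difference stayed negative under 4 alternatives. None of the mouse, stage by mouse and spread differences passed the threshold under these alternatives. Of all transcripts, 592 were higher in SN with library size only, against 899 with TMM. The split of higher against lower calls was 899 to 1345 with TMM, 592 to 1570 with library size only, 693 to 2012 without the filter and 868 to 1688 with DESeq2, so the share of higher calls fell from 40.1% to 27.4%, 25.6% and 34%. Transcripts that differed between the mice numbered 6 as reported, 0 with library size only, 53 without the filter and 165 with DESeq2, and the cause was not tested. Only 2 mice were sampled, each with oocytes of both stages, so the values do not show how the stage difference varies over other animals.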

Other observations

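The SN oocytes with the most Slc23a2 were also among those with the fewest transcripts detected (at least 1 count). C-20 and C-21, at 861 and 924 CPM, had 16646 and 17309 detected transcripts, and C-13, at 223 CPM, had 19405. Across SN oocytes the Pearson's r of CPM with the number detected was -0.612 (n = 16), and it was -0.473 without C-14 and C-20. Across NSN oocytes it was -0.272 (n = 9), with a Spearman's rho of -0.05, and it turned to 0.451 without D-11 and C-8, so no direction is read there. Total count moved with both, and their parts were not separated.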
